A study of Mus musculus with 6 samples.

Results

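Lysosomal enzymes are made in the endoplasmic reticulum and reach the lysosome because the Golgi marks them with mannose 6-phosphate. A phosphotransferase built from the products of Gnptab and Gnptg adds a covered phosphate to their mannose-rich sugars, and the uncovering enzyme Nagpa removes the cover. Mannose 6-phosphate receptors then bind the tag and leave the trans-Golgi network in clathrin-coated carriers with the help of GGA adaptor proteins, while Sort1 and Sorl1, members of the Vps10 family, carry some proteins without the tag. The 10 genes examined here were listed by role: Gnptab, Gnptg and Nagpa make the tag, M6pr and Igf2r are the tag's receptors, Sort1 and Sorl1 are the other sorting receptors, and Gga1, Gga2 and Gga3 are the adaptors. A gene was measured where a transcript cluster of the array was annotated with its symbol alone, and 9 of the 10 were, each by 1 cluster, out of 16583 genes in all. The only cluster annotated with M6pr, the smaller of the receptors, also names its pseudogene M6pr-ps and was not used, so M6pr has no value here.

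The cells were Neuro2a, a mouse neuroblastoma line, and RNA of 6 samples was hybridised to Affymetrix Mouse Gene 1.0 ST arrays. Of these, 3 came from cells given miR RNAi vectors against USF1 and USF2, and 3 from cells given the empty vector. USF1 and USF2 are transcription factors that bind E-boxes, short DNA elements with the letters CANNTG, of which the palindrome CACGTG is the usual USF site. The knockdown vectors were built in the pcDNA6.2-GW/EmGFP-miR system and both sets of cells were transfected with a lipid reagent, so the empty vector cells shared the transfection. The labels give neither the time between transfection and harvest nor the share of cells that took up a vector. They call the samples of a group biological replicates, with no word on separate cultures, and the spread behind the p-values may thus be technical.

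Signals are on a log2 scale relative to each cluster's own median over the 6 arrays, so arrays can be compared for a gene, but genes cannot be compared with each other in level. Rounding steps in the deposited numbers place a cluster in a dimmer or a brighter class before centring (4 to 8 or 8 to 16 on the log2 scale). By this class 12 of 16 measured neuroblastoma and sympathetic neuron markers were in the brighter class, against 0 of 10 glial, 0 of 6 fibroblast, 0 of 7 macrophage and blood and 2 of 9 endothelial and epithelial ones. The standard deviation over all clusters was 0.159 on knockdown array 2 and 0.0531 to 0.0780 on the other 5 arrays. On knockdown array 2 the median was 0.071 in the dimmer class and -0.028 in the brighter one. Of the members, Igf2r and Sorl1 lay in the dimmer class and the other 7 in the brighter one. The signal of each target was lower with knockdown than with empty vector. Usf1 had -0.28, -0.18 and -0.26 on the knockdown arrays, against 0.18, 0.32 and 0.43 with empty vector, a change of -0.55 ± 0.07 (SE, n = 3 per group). Usf2 had -0.22, -0.13 and -0.12 on the knockdown arrays, against 0.12, 0.28 and 0.27 with empty vector, a change of -0.38 ± 0.06 (SE). Neither passed over all genes (limma adjusted p = 0.32 and 0.348), and an exact two-sided permutation test gave p = 0.10 for each, the lower limit for 3 against 3 arrays.

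The promoters of the members were read because the factors knocked down bind E-boxes. Promoter sequences from RefSeq (build GRCm38.p6, from 250 bases before to 50 after an annotated start) were matched by symbol for 8 members, and Sort1 and M6pr had no entry. The palindrome CACGTG, which reads the same on both strands, was present in 5 of the 8, in the promoters of Gnptg, Nagpa, Igf2r, Sorl1 and Gga2. Of 13071 tested genes with an entry, 10.6% held it in at least 1 promoter, and of 32851 promoter entries, 7.15%. The looser CANNTG, which includes CACGTG, was in 7 of the 8 members and in 70% of the tested genes. The 7 CACGTG matches all lay within 50 bases of a start. The windows end 50 bases after it, and the share over all promoters was not computed, so this is not read as particular to the members. The windows below are 30 bases each, with CACGTG in capitals. They are shown because they are the candidate letters that USF proteins could read in these genes.

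Gnptg, chr17:25240120-25240149, minus strand: ccggctgtcactCACGTGaccgtgagaccc
Nagpa, chr16:5203997-5204026, minus strand: gaatCACGTGgggcgagccCACGTGaccgg
Igf2r, farther site, chr17:12769737-12769766, minus strand: gaacgaggacgtCACGTGagcaggaggcgg
Igf2r, nearer site, chr17:12769696-12769725, minus strand: gccgactcaggtCACGTGacgctccgggga
Sorl1, chr9:42124299-42124328, minus strand: gctgcgagctcaCACGTGacggcacggcgc
Gga2, chr7:122021182-122021211, minus strand: ggcccgccccgtCACGTGcctctcagtgtc

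Counted from the start, with the start as base 1 and the base before it as -1, the first letter of the match lay at 4 in Gnptg, at -10 and 6 in Nagpa, at -48 and -7 in Igf2r, at -19 in Sorl1 and at -1 in Gga2. The Gga2 match thus crosses its annotated start. Gnptg has a second annotated start nearby, whose entry holds the same match. Sorl1 has a second entry as well (chr9:42077164-42077463), and that one holds neither CACGTG nor CANNTG. The letters next to the palindrome differed: GT preceded it at 3 of the 7 sites, and AC followed it at 4. No CACGTG was found in the windows of Gnptab, Gga1 and Gga3. A match is a description of letters, and binding was not measured on these arrays.

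**Figure D1:**
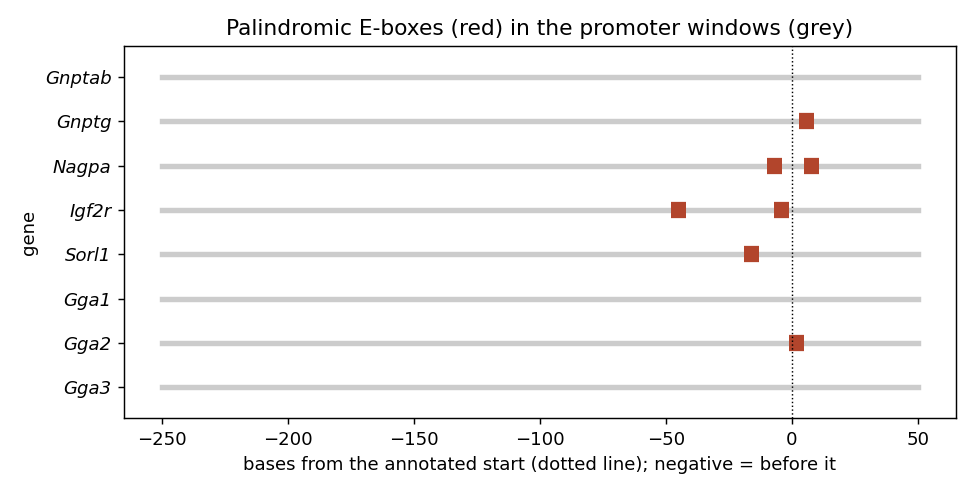
Position of each CACGTG palindrome (red) in the promoter windows (grey, 250 bases before to 50 after the annotated start) of the 8 members with a RefSeq entry, with distance from the start in bases on the x axis. The 7 matches in 5 genes lie near the dotted start line, and 3 genes have none.

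Knockdown was compared with empty vector to ask whether the tagging and sorting genes change when the USF factors are lowered. No member passed the threshold of 0.05 in limma adjusted over all 16583 genes (0 of 9, adjusted p = 0.996 for each member), where 0.00603% of all genes passed, that is the single gene Dpp7. At an unadjusted p under 0.05, 0 members were higher and 1 was lower, the adaptor Gga2, beside 1.6% of all genes higher and 2.65% lower. The 3 knockdown arrays lay above the 3 empty vector arrays for 0 members, against 4.33% of all genes, and below them for Gga2 alone, against 5.95%. A single gene among 9 is not read as a result about the group. The median change of the 9 members was -0.015, where that of all genes was -0.0007. In 8 of the 9 the absolute change was below 0.1 on the log2 scale, which held for 86.5% of all genes, and in 7 it was smaller than its own standard error.

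**Figure D2:**
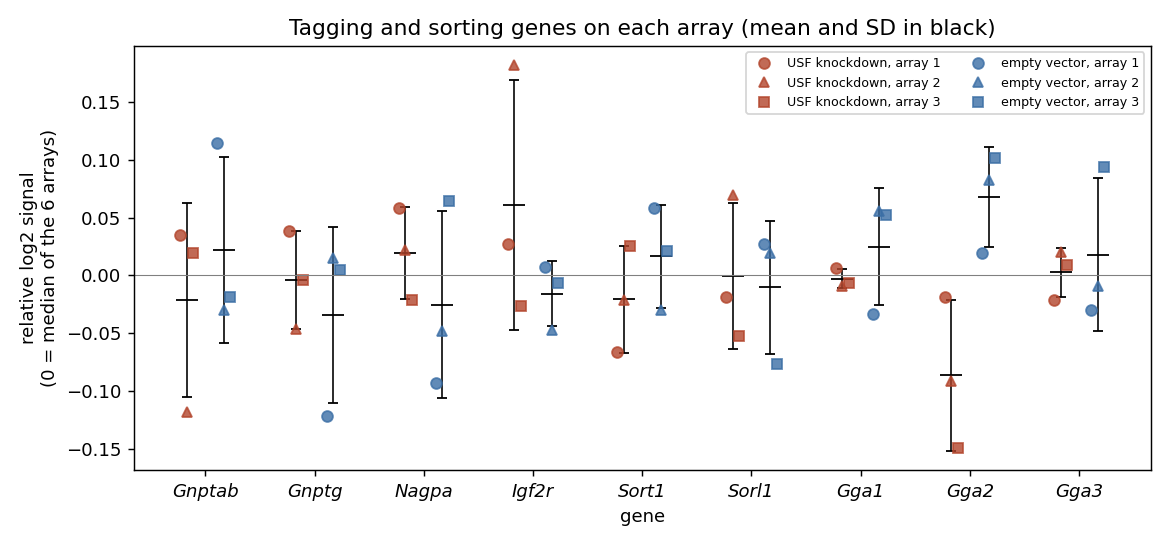
Relative log2 signal of the 9 measured members on each array, knockdown (red) left of empty vector (blue), with array numbers as symbols and the mean and SD of 3 arrays in black. The groups overlap for each gene but Gga2, and Igf2r stands high, at 0.18, on knockdown array 2.

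The enzymes that make the tag had small changes of both signs. Gnptab encodes the catalytic alpha and beta subunits of the phosphotransferase. It had 0.035, -0.12 and 0.019 on the knockdown arrays, against 0.11, -0.030 and -0.019 with empty vector. The highest value came from an empty vector array and the lowest from knockdown array 2, with the others between them. The change was -0.043 ± 0.061 (SE), with a limma 95% interval of -0.19 to 0.099, and it was 0.0053 when knockdown array 2 was left out and 0.0032 when empty vector array 1 was. Gnptg encodes the gamma subunit, which helps the enzyme act on a subset of lysosomal proteins. It had 0.038, -0.046 and -0.0044 on the knockdown arrays, against -0.12, 0.015 and 0.0044 with empty vector. Empty vector array 1 was the lowest of the 6 and the groups overlapped. The change was 0.030 ± 0.053 (SE, 95% interval -0.092 to 0.15), and -0.014 without that array. Nagpa, the uncovering enzyme, had 0.058, 0.022 and -0.022 on the knockdown arrays, against -0.093, -0.048 and 0.065 with empty vector. Its highest and lowest values both came from empty vector arrays. The change was 0.045 ± 0.053 (SE, 95% interval -0.079 to 0.17), and 0.011 without empty vector array 1 or 0.090 without empty vector array 3.

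Of the receptors of the tag, Igf2r was measured. This large receptor binds tagged enzymes in the Golgi and at the cell surface, and also the growth factor IGF2, which it takes up for degradation. Igf2r had 0.027, 0.18 and -0.026 on the knockdown arrays, against 0.0069, -0.047 and -0.0069 with empty vector. Knockdown array 2 was far above the other 5, which spanned both groups. The change was 0.077 ± 0.060 (SE, 95% interval -0.062 to 0.22), the most positive among the members, and 0.016 without knockdown array 2. The median of the dimmer class, to which Igf2r belongs, was also high on that array, and a link was not tested. The Igf2r change was 0.059 with quantile normalization and 0.057 with arrays centred and scaled to 1 spread. The sign of the Igf2r change was positive in each of the 14 alternatives that tested it, some of which leave the change as reported.

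The Vps10 receptors had changes close to 0. Sort1, or sortilin, binds neurotensin, progranulin and pro-neurotrophins and carries prosaposin to lysosomes. Sort1 had -0.067, -0.021 and 0.026 on the knockdown arrays, against 0.059, -0.030 and 0.021 with empty vector. The lowest array was a knockdown one and the highest an empty vector one, with the remaining 4 mixed. The change was -0.037 ± 0.046 (SE, 95% interval -0.14 to 0.070). Sorl1 sorts the amyloid precursor protein in neurons and is a risk gene for Alzheimer's disease in humans. It had -0.019, 0.070 and -0.052 on the knockdown arrays, against 0.027, 0.019 and -0.077 with empty vector. As for Igf2r, the highest value was on knockdown array 2. The change was 0.0099 ± 0.052 (SE, 95% interval -0.11 to 0.13), and -0.025 without that array.

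Gga1, Gga2 and Gga3 each had a change below 0, and a difference between the adaptors was not tested. GGA proteins are monomeric adaptors that bind ARF GTPases, the tails of sorting receptors and clathrin at the trans-Golgi network. Gga2 had -0.019, -0.091 and -0.15 on the knockdown arrays, against 0.019, 0.083 and 0.10 with empty vector. The groups did not overlap: each knockdown value was under each empty vector value, with the nearest pair 0.019 on either side of 0. The means were -0.086 ± 0.065 in knockdown cells and 0.068 ± 0.043 with empty vector (SD, n = 3 each). The change was -0.15 ± 0.05 (SE), or 0.899-fold, with a 95% interval of 0.829-fold to 0.974-fold. Its unadjusted limma p was 0.0155, place 221 among the 16583 genes, and its adjusted p was 0.996. An exact two-sided permutation test gave 0.10, the lower limit of this design. Gga2 thus separated the groups on these arrays but did not pass the adjustment over all genes.

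Gga1 had 0.0062, -0.0093 and -0.0062 on the knockdown arrays, against -0.034, 0.055 and 0.052 with empty vector. The 3 knockdown arrays lay between the lowest and the other empty vector arrays. Its change was -0.028 ± 0.044 (SE, 95% interval -0.13 to 0.073). Gga3, which in human cells also sorts the beta-secretase BACE1, had -0.021, 0.020 and 0.0093 on the knockdown arrays, against -0.030, -0.0093 and 0.093 with empty vector. The groups overlapped, and the change was -0.015 ± 0.048 (SE, 95% interval -0.13 to 0.095). Within each array, Gga2 minus the mean of Gga1 and Gga3 was -0.012, -0.097 and -0.15 on the knockdown arrays, against 0.051, 0.060 and 0.029 with empty vector. These differences did not overlap between the groups either. They are a description, since Gga2 was picked for its own values.

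**Figure D3:**
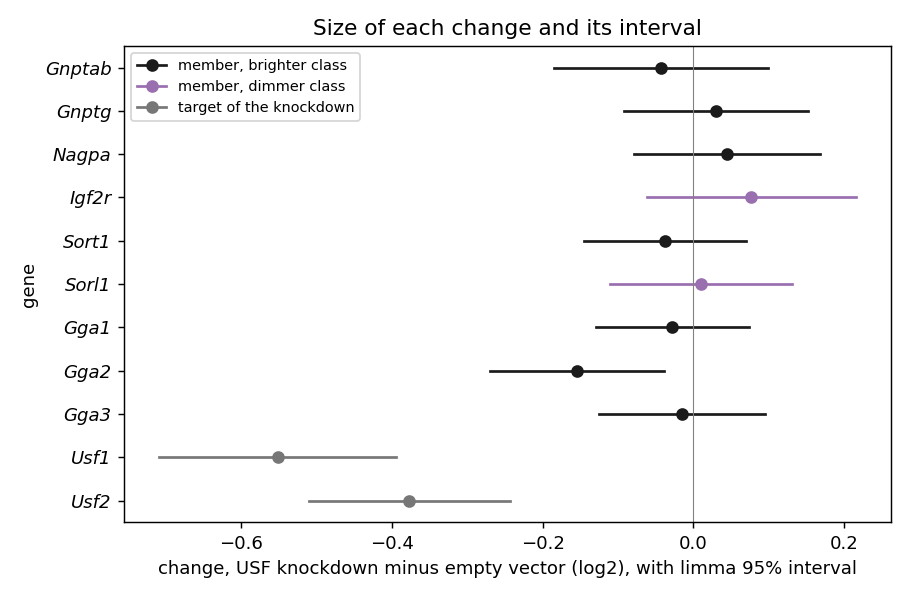
Change of each member and of both targets (knockdown minus empty vector, log2, x axis) with limma 95% intervals, n = 3 arrays per group. The intervals of 8 members include 0, that of Gga2 runs from -0.27 to -0.038, and both targets lie farther to the left.

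The intervals bound how large a change these arrays could have missed. Apart from Gga2, the bound farthest from 0 was 0.22 on the log2 scale (Igf2r, upper bound, 1.16-fold), so for 8 members a shift larger than this lay outside the interval. Array signals can compress true folds, so these bounds apply to the array scale. Both targets kept 0.682-fold (Usf1) and 0.770-fold (Usf2) of the empty vector signal, and protein was not measured.

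The size and the unadjusted p of the Gga2 difference moved with the arrays and settings used. The change was negative in each of 15 other settings, from -0.19 to -0.099. Because the groups do not overlap, leaving out or reweighting arrays could not turn this sign. Settings such as the replicate block alter the variance or the adjustment and leave the change as reported. The unadjusted limma p stayed under 0.05 in 12 of the 15. It was 0.0575 without knockdown array 3, 0.0591 without empty vector array 3, and 0.126 with a variance trend on the mean absolute signal. Without empty vector array 2 it was 0.04999, at the threshold. The lowest adjusted p was 0.0938, with array quality weights, a fit that gave knockdown array 1 a weight of 33 and the other arrays weights of 0.136 to 1.11. In that fit the change was -0.099, and Sort1 was also under an unadjusted p of 0.05 (a change of -0.076, limma adjusted p = 0.144). With these weights 4356 of all 16583 genes were under an unadjusted limma p of 0.05, and 1111 passed the adjustment.

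**Figure D4:**
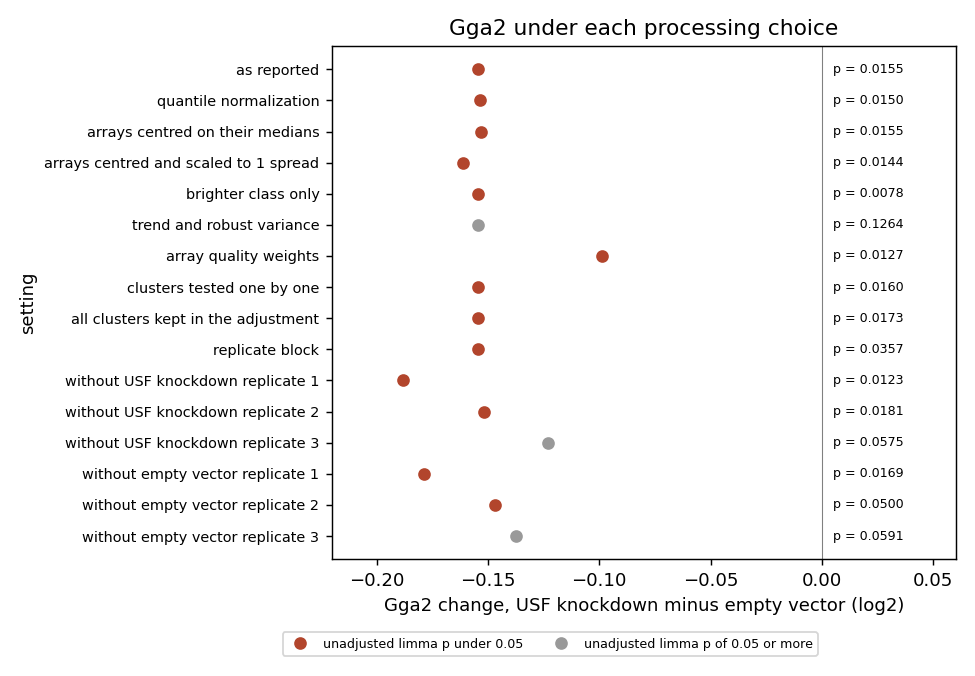
Change of Gga2 (knockdown minus empty vector, log2, x axis) as reported and under 15 other settings (y axis), with the unadjusted limma p printed at the right. Each point lies left of 0, and the 3 grey points are the settings with p of 0.05 or more. Leaving out an array could not move a point across 0, since the groups do not overlap.

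Because 110 bases around the Gga2 start hold its only CACGTG, they are shown in full, from 100 bases before to 10 after the start, with the palindrome in capitals (GRCm38.p6).

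Gga2 start region, chr7:122021189-122021298, minus strand: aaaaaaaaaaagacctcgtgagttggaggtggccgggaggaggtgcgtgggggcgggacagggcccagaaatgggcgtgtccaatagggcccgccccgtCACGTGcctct

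The members with and without the palindrome can be set side by side. Of the 5 with CACGTG, 4 had changes above 0 (Gnptg, Nagpa, Igf2r and Sorl1) and 1 below (Gga2), over a range of -0.15 to 0.077. The 3 without it, Gnptab, Gga1 and Gga3, had changes of -0.043 to -0.015. Over the table, 4.62% of the 1385 tested genes with CACGTG were lower and 2.31% higher at an unadjusted p under 0.05, against 2.44% lower and 1.57% higher among 11686 without it. The medians were -0.0033 with CACGTG and -0.0012 without. The difference between these shares was not tested.

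Over the 6 arrays the genes whose pattern was most like that of Gga2 were Rmi2 (Pearson r = 0.990), Mrpl18 (0.987) and Grcc10 (0.986). Of the 16582 other genes, 35 had an r of 0.95 or more. These correlations carry the difference between the groups as well as the spread within them.

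Other genes of the same route were taken from 7 lists. Counts at an unadjusted limma p under 0.05 stand beside 1.6% of all genes higher and 2.65% lower. The groups did not overlap in 4.33% of all genes with knockdown higher and in 5.95% with knockdown lower. Among the list genes named below this held for Acp2 and Rab7, and for Alg1, Stt3a, Cln6 and Clint1 without an unadjusted p under 0.05. It also held for the cargo genes Dpp7, Ctsd, Hexa and Gusb. Of the genes that process or oppose the tag, 5 of 6 listed symbols were measured (Tmem251 was listed under an older and a newer name), 0 passed adjusted over all genes, and the median change was -0.0028. Acp2, a lysosomal acid phosphatase that helps remove the tag once enzymes arrive, had -0.045, -0.24 and -0.024 on the knockdown arrays, against 0.024, 0.065 and 0.050 with empty vector. Knockdown array 2 was the lowest, and the groups did not overlap. The change was -0.15 ± 0.06 (SE, limma adjusted p = 0.996), and this was the 1 gene of the list at an unadjusted p under 0.05. Acp5, which shares this role, and Mbtps1, the protease that cleaves the Gnptab precursor, had changes of 0.049 ± 0.059 and 0.024 ± 0.041 (SE).

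Genes that supply mannose and build and trim N-glycans, 21 of 21 measured, had a median of 0.0026 with 0 past the threshold and 0 at an unadjusted p under 0.05. Those with the smallest p were the mannosyltransferase Alg1 (0.11 ± 0.05, SE), Gmppb, which makes GDP-mannose (-0.10 ± 0.06), and Stt3a, a catalytic subunit of oligosaccharyltransferase (0.050 ± 0.041). Genes for exit from the endoplasmic reticulum, 5 of 5 measured, had a median of 0.014, again with 0 past either threshold. Cln6, which acts with Cln8 in moving lysosomal enzymes to the Golgi, had a change of 0.054 ± 0.042 (SE). The cargo receptor Lman1 and its partner Mcfd2 had -0.051 ± 0.041 and 0.055 ± 0.044 (SE).

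The machinery that works with the GGA proteins gave no calls. Of clathrin, the AP-1 adaptor and GGA partners, 26 of 26 were measured, 0 passed and 0 were at an unadjusted p under 0.05, with a median of 0.0093. Ccdc91, a protein that binds GGA adaptors, had -0.24, -0.27 and 0.029 on the knockdown arrays, against -0.016, 0.017 and 0.045 with empty vector. Knockdown array 3 lay among the empty vector arrays, and the change was -0.18 ± 0.08 (SE, limma adjusted p = 0.996). Ap1m2, the AP-1 subunit of epithelial cells, had a change of 0.12 ± 0.06 (SE), and Clint1, an adaptor for a SNARE protein on clathrin carriers, 0.049 ± 0.040.

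Genes that return empty receptors from endosomes to the Golgi, 23 of 23 measured, had a median of -0.011, with 0 past the threshold and 1 higher at an unadjusted p under 0.05. This was Rab7, the GTPase of late endosomes, with 0.034, 0.12 and 0.037 on the knockdown arrays, against -0.034, -0.075 and -0.091 with empty vector. The groups did not overlap, and the change was 0.13 ± 0.04 (SE, limma adjusted p = 0.996). The retromer subunit Vps26a and the tethering subunit Vps54 had 0.097 ± 0.052 and -0.12 ± 0.08 (SE). Of other sorting receptors, 7 of 8 measured, 0 passed either threshold, with a median of 0.022. Sorcs3, a relative of Sort1, had a change of 0.10 ± 0.08 (SE), Lrp2, an endocytic receptor, 0.086 ± 0.092, and Scarb2, which carries glucocerebrosidase to lysosomes without the tag, -0.091 ± 0.066. Sorcs3 and Lrp2 lay in the dimmer class and were highest on knockdown array 2, at 0.27 and 0.28.

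The cargo of the route held the single gene that passed. The lists were chosen with earlier results of these data known, so its place in this list is a description. Of the soluble lysosomal proteins, 50 of 56 listed were measured, with a median of -0.0001. The dipeptidyl peptidase Dpp7 rose 1.63-fold (0.71 ± 0.05, SE, limma adjusted p = 0.0148), a call that was lost without knockdown array 1 or without any of the 3 empty vector arrays, and also with the replicate block, with arrays scaled to 1 spread and with the variance trend. The unadjusted limma p was under 0.05 for 8 of the 50 cargo genes, 4 on each side of 0, beside 1.6% of all genes higher and 2.65% lower. The aspartic protease Ctsd had a change of 0.28 ± 0.04 (SE) and Hexa, a hexosaminidase subunit, -0.24 ± 0.05. Gusb, the beta-glucuronidase, was among the 4 below 0 with -0.11 ± 0.05 (SE, limma adjusted p = 0.996) and is named after its value was seen. Its unadjusted limma p of 0.0489 was the largest of the 8. In these 50 genes the changes ran from -0.24 to 0.71, and in the 9 tagging and sorting genes from -0.15 to 0.077. The lists differ in size, and the difference in spread was not tested.

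**Figure D5:**
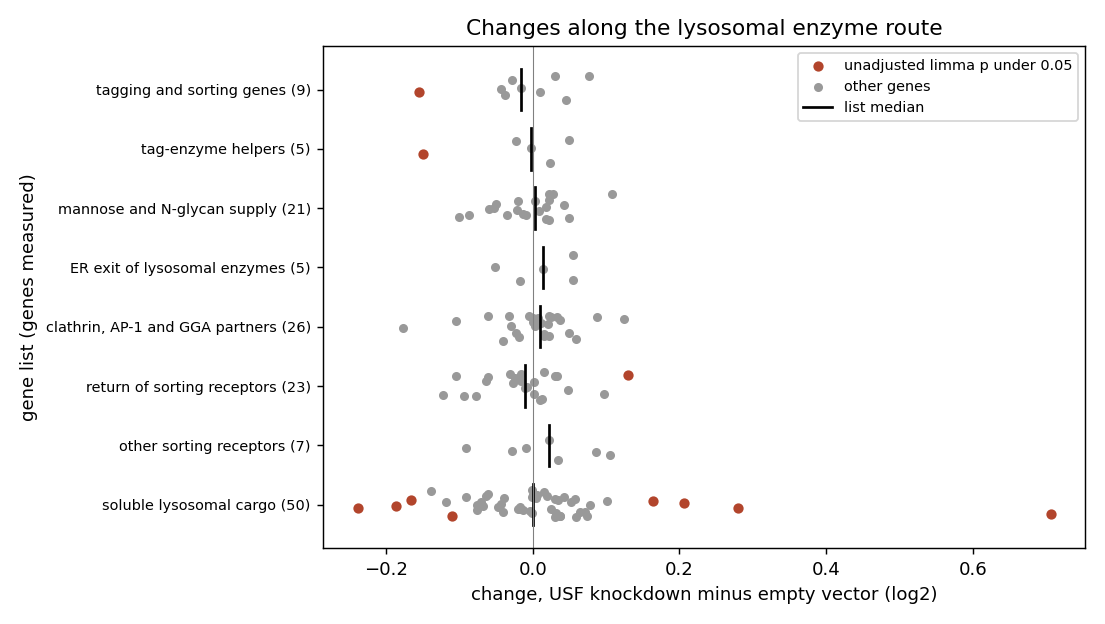
Change of each measured gene (knockdown minus empty vector, log2, x axis) in the tagging and sorting genes and in 7 lists of the same route, with list medians as black bars and genes at an unadjusted limma p under 0.05 in red. The medians lie between -0.015 and 0.022, and the widest spread is in the soluble cargo.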

How the data were processed

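The deposited values, read here as log2, cover 22891 transcript clusters on 6 arrays, and the authors gave each cluster relative to its own median. The base was taken from single-precision rounding steps (tolerance 0.05 of a step), since neither it nor the background correction, normalization or software is given in the sources used here. Values below 0.001 in size are too coarsely written and were left out of that step test. Clusters with 1 symbol in the platform annotation (18087, with 1145 of several and 3659 unnamed) were averaged to 16583 genes. Changes (knockdown minus empty vector) came from limma 3.58.1 (lmFit, eBayes) under R 4.3.3, with 4 residual and 3.79 prior degrees of freedom and Benjamini-Hochberg adjustment over all genes. Precision is limited by how few arrays there are (median standard error of a change, 0.0561). The fit was tested on simulated data. Figures used matplotlib 3.10.9 in Python 3.11.15. The members and lists were chosen with earlier results of these data known. Genes named besides the members and targets were, per list, those past the threshold or the 3 with the smallest p (Gusb, outside this rule, was chosen after its value was seen), and the 3 genes most correlated with the member of smallest p. Alternatives covered normalization, variance model, weights, class filter, replicate block and each array left out.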

Additional observations from a re-analysis of the deposited data

How the results depend on the processing

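The count of members past the threshold was 0 in all 15 alternatives, and 125 of 133 values of member changes kept their sign. Several settings, such as the variance trend and the replicate block, leave a member's change as reported, so its sign could not turn there. The count of members lower at an unadjusted p under 0.05 was 0 with the variance trend and 2 with array quality weights, and 0 to 1 with 1 array left out. Of all 16583 genes, in both directions, 4356 were under this p with array quality weights and 369 to 1248 with 1 array left out. The member counts are thus not read as a result about the group. The variance trend used the mean absolute signal, which grows with a gene's own change, and left 0 genes of the table at an unadjusted p under 0.05. With 1 array left out, members whose groups did not overlap numbered 0 to 1 with knockdown higher (Igf2r without knockdown array 3, Nagpa without empty vector array 3) and 1 to 2 with knockdown lower (Gga1 besides Gga2 without empty vector array 1). Fewer arrays separate more readily, and the share of all genes was not computed for these fits. These counts are therefore not read as a result about the members. The sign turned for Sorl1 with arrays centred and scaled to 1 spread (-0.0002) and for Gnptab with array quality weights (0.0295). With 1 array left out, changes ran from -0.0712 to 0.0053 for Gnptab, -0.0139 to 0.0547 for Gnptg, -0.0253 to 0.0358 for Sorl1 and -0.0393 to 0.0224 for Gga3. The cause of these turns was not tested. In the same fits Nagpa ran from 0.0111 to 0.0897, Igf2r from 0.0162 to 0.1202, Sort1 from -0.0604 to -0.0142 and Gga1 from -0.0570 to -0.0124, each on 1 side of 0. Over the table, calls numbered 1 as reported, 0 with scaling, with the variance trend and with the replicate block, 1111 with array quality weights, and 0 to 1 with 1 array left out (0 without knockdown array 1 or any of the empty vector arrays). Within the 7 lists the counts were the same except 15 with weights, where both targets passed as well (2 of 2). In the replicate block fit the unadjusted limma p of Gga2 was 0.0357. Same-numbered arrays correlated in their deviations from the group means at 0.003, 0.082 and 0.036, so the numbers were not taken as pairs. Array signal over background was not given, and changes of genes in the dimmer class may be missed.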
